A study of Mus musculus with 9 samples.

Results

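The genes described are 9 transcripts of migratory mature dendritic cells, named by symbol: Ccr7, Fscn1, Ccl17, Ccl22, Cd83, Socs2, Il4i1, Marcks and Cacnb3. Of the 18193 genes with a probe set that carries a single gene symbol, 8 of these 9 were found, and Cacnb3, a subunit of voltage-gated calcium channels, was not analysed here. The 9 Affymetrix arrays covered 6 groups of freshly sorted cells, with no treatment named in the labels, from naive mice of the BALB/c strain that were 6 to 8 weeks old. These groups were lymph node conventional dendritic cells (CDC, 1 array), spleen CDC (2 arrays), lymph node interferon-producing killer dendritic cells (IKDC, 1 array), spleen IKDC (2 arrays), lymph node natural killer cells (NK, 1 array) and spleen NK (2 arrays). The labels name neither the lymph nodes taken nor the sort markers, nor which mice or how many gave the cells of each array. P-values measure only the spread between the spleen arrays.

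Dendritic cells take up antigen in tissues and, on maturing, leave by the lymph for the draining lymph node, where they present antigen to T cells. The chemokine receptor CCR7 guides that journey, fascin and MARCKS act on the actin skeleton of the moving cell, and the chemokines CCL17 and CCL22 call T cells that carry CCR4. A lymph node therefore holds dendritic cells that came in by the lymph beside those that live there, whereas the spleen receives no such lymph.

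The label CDC was checked against 16 markers of resident conventional dendritic cells, among them Flt3 and Xcr1. All 16 lay at or above the level filter on each of the 3 CDC arrays, and their summed intensity was 35559 units on the lymph node CDC array and 36854 and 38797 on the spleen CDC arrays, against 8974 to 13644 on the 6 arrays of IKDC and NK. The sum hides unequal shifts, since 7 of the 16 read higher in lymph node CDC than in the mean of spleen CDC. Dtx1 read 7.11 in lymph node CDC against 10.62 and 10.96 in spleen CDC (adjusted p = 0.0515, and 0.016 with the replicate block), Irf4 read 6.89 against 8.78 and 9.56, and Esam read 6.98 against 8.37 and 9.29. The part of these shifts in the results on the 8 genes was not tested. The level filter was a log2 intensity of 5.31, the 40th percentile of gene means, and readings below it were treated as near background. The median intensity ranged from 23.4 to 41.3 units over the 9 arrays, and the number of arrays limits the precision. Xist, transcribed in female cells, and the Y-linked Eif2s3y set the spleen arrays apart by number in all 3 cell types, with Xist at 6.02 to 6.36 on arrays numbered 1 and 11.43 to 12.48 on arrays numbered 2, so the 2 spleen arrays of a cell type did not come from the same mice. On CDC, Xist read 12.05 in lymph node and 6.02 and 12.48 on spleen arrays 1 and 2, and Eif2s3y read 2.76 in lymph node and 9.0 and 4.28 on spleen arrays 1 and 2. The lymph node array is therefore given against each spleen array separately as well as against their mean. The replicate number used as a block below carries the same split, but among the spleen arrays only. In that fit lymph node arrays were set midway between the 2 numbers. The block thus leaves each organ difference as it is against the spleen mean and does not adjust it for the split.

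The first question was whether CDC of the lymph node carry more of these transcripts than CDC of the spleen. Lymph node CDC read above both spleen CDC arrays for 7 of the 8 measured genes, where 36.9% of the 10916 genes tested did so, and more than 2-fold above both for 5 of the 8, against 4.2% of genes tested. These counts are a description, since Ccl17 was not among the genes tested and Ccl22 and Il4i1 were tested only because of their lymph node CDC reading. Of the 5 genes that pass the filter on the other 8 arrays, 4 read above both spleen CDC arrays and 2 did so by more than 2-fold. Ccl17, Ccl22 and Socs2 stood furthest apart, then Fscn1, Ccr7 and Il4i1, while Marcks and Cd83 were high in CDC of both organs. With 1 lymph node array, no gene of the 8 passed the test against spleen CDC unless the replicate number of the spleen arrays was a term of the fit. In bulk samples of this kind, fewer cells of a type and less RNA per cell cannot be told apart.

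**Figure D1:**
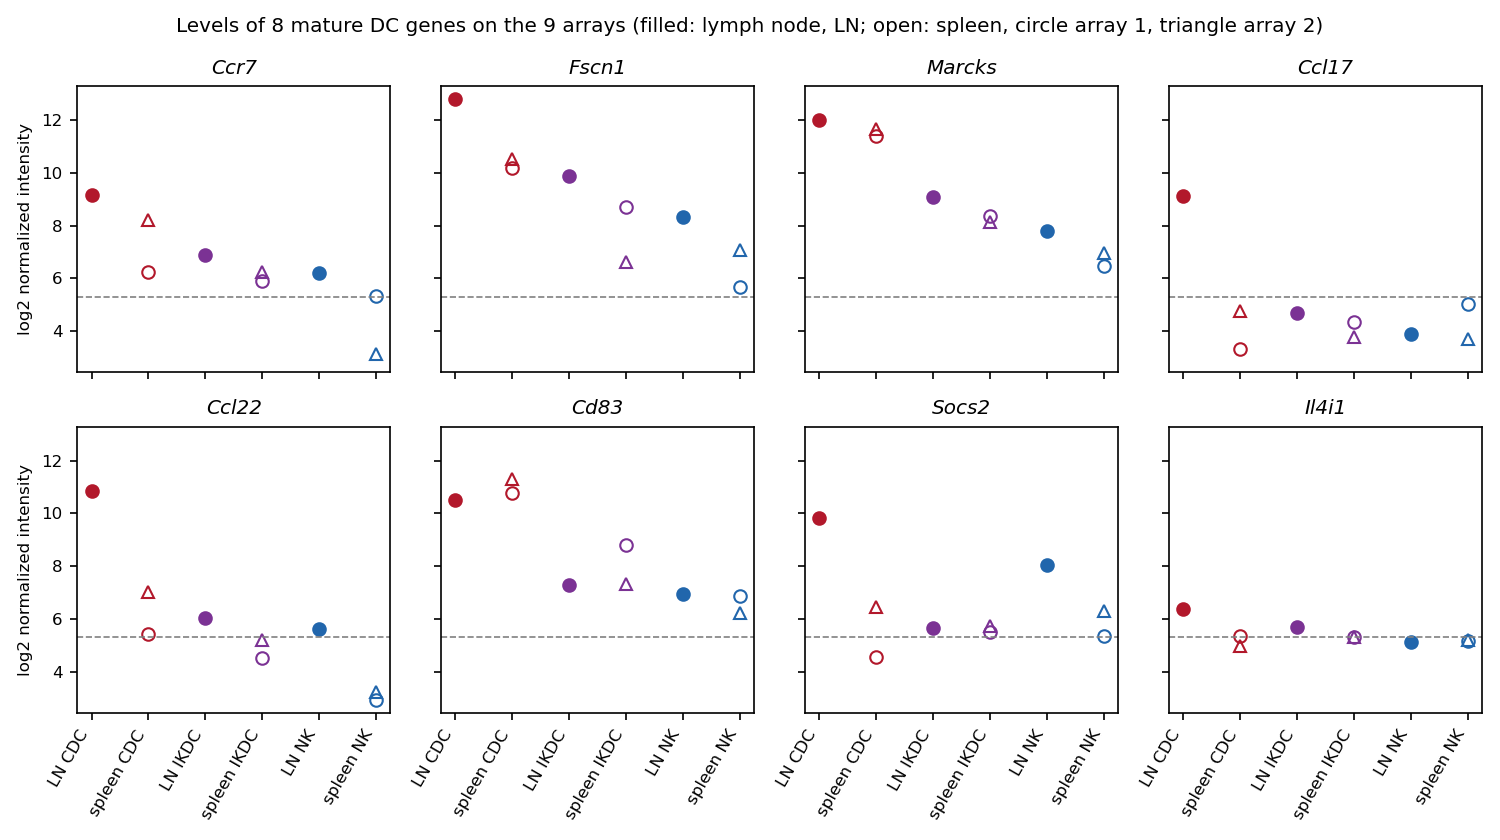
Log2 normalized intensity (vertical axis) of the 8 genes by organ and cell type, 1 point per array, with filled circles for lymph node (LN), open circles for spleen array 1 and open triangles for spleen array 2. The dashed line is the level filter of 5.31. The LN CDC array is the highest of the 9 for every gene but Cd83, and Ccl17 lies above the line on that array alone.

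Ccr7 encodes the receptor for the lymphatic chemokines CCL19 and CCL21. It read 9.17 in lymph node CDC and 6.25 and 8.22 in spleen CDC, 6.88 in lymph node IKDC and 5.91 and 6.23 in spleen IKDC, and 6.22 in lymph node NK and 5.34 and 3.12 in spleen NK. Lymph node CDC gave the highest reading and the arrays of spleen NK the lowest, but spleen CDC array 1 lay below lymph node IKDC. The difference between lymph node CDC and the mean of spleen CDC was 1.93 ± 1.08 on the log2 scale (SE, limma adjusted p = 0.514). It was 2.92 against spleen CDC array 1 and 0.94 against spleen CDC array 2, so its size rests on which spleen array is taken. From spleen CDC through lymph node IKDC and lymph node NK to spleen IKDC, the gaps between neighbours ran from 0.15 to 0.66. The whole span was 1.17, less than the SD of 1.40 between the spleen CDC arrays.

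Fscn1 encodes fascin, which bundles actin into the long dendrites of mature dendritic cells. It read 12.80 in lymph node CDC and 10.18 and 10.52 in spleen CDC, 9.86 in lymph node IKDC and 8.70 and 6.63 in spleen IKDC, and 8.33 in lymph node NK and 5.66 and 7.09 in spleen NK. On the probe set used, all 3 CDC arrays lay above the other 6, and within each cell type the lymph node array lay above both spleen arrays. Another tested probe set, 1448378_at, read lower in lymph node than on both spleen arrays in NK and in IKDC. Lymph node CDC differed from spleen CDC by 2.45 ± 0.91 (adjusted p = 0.349), with 2.62 against array 1 and 2.28 against array 2. In deposited intensity this was 9090 units in lymph node CDC against 1212 and 1433 in spleen CDC. Lymph node NK and spleen IKDC stood 0.67 apart, within the SD of 1.46 between the spleen IKDC arrays.

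Marcks encodes a membrane-bound protein kinase C substrate that binds actin. It read 11.99 in lymph node CDC and 11.39 and 11.68 in spleen CDC, 9.08 in lymph node IKDC and 8.35 and 8.14 in spleen IKDC, and 7.80 in lymph node NK and 6.46 and 6.97 in spleen NK. The groups ran in that order without overlap, and the widest step, 2.45, lay between spleen CDC and lymph node IKDC. Between the organs, CDC differed by 0.45 ± 0.35 (adjusted p = 0.642), with 0.60 against array 1 and 0.31 against array 2. All 3 CDC arrays lay above the other 6 for this gene.

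Ccl17 and Ccl22 encode the ligands of CCR4, a receptor of T cells. Ccl17 read 9.13 in lymph node CDC and 3.33 and 4.77 in spleen CDC, 4.69 in lymph node IKDC and 4.33 and 3.79 in spleen IKDC, and 3.89 in lymph node NK and 5.03 and 3.69 in spleen NK. It passed the level filter on 1 array of 9, that of lymph node CDC, where the deposited intensity was 518 units against 3.33 and 21.6 units in spleen CDC. The other 8 readings lay below the filter and have no order. Since its mean over the arrays, 4.74, was under the filter, Ccl17 was tested over all 18193 genes with no filter. There, lymph node CDC exceeded spleen CDC by 5.08 ± 0.82 (adjusted p = 0.168, and 0.0875 with the replicate block), which against the filter level is at least 14.1-fold.

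Ccl22 read 10.85 in lymph node CDC and 5.43 and 7.02 in spleen CDC, 6.03 in lymph node IKDC and 4.5 and 5.20 in spleen IKDC, and 5.61 in lymph node NK and 2.93 and 3.22 in spleen NK. Lymph node CDC led the next array by 3.83, and the gaps from spleen CDC to lymph node IKDC and on to lymph node NK were 0.19 and 0.42, less than the SD of 1.13 between the spleen CDC arrays. The organ difference in CDC was 4.63 ± 0.72 (adjusted p = 0.0994), or 24.8-fold, with 5.43 against array 1 and 3.83 against array 2. With the replicate number as a block it passed the test (adjusted p = 0.0239), and with the block but no level filter it did not (adjusted p = 0.0596). Of the 10916 genes tested, Ccl22 had the difference of rank 2 in this comparison. Its mean was 5.64 over 9 arrays and 4.99 over the 8 arrays without lymph node CDC, so it passed the filter only through that array.

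In the mouse the Ccl17 and Ccl22 genes are near neighbours on chromosome 8, with 1 protein-coding gene, Cx3cl1, between them in the RefSeq gene order. Cx3cl1, which encodes the chemokine fractalkine, read 4.94 in lymph node CDC against 5.50 and 4.28 in spleen CDC. Pllp, beside Ccl22 on its other side, read 5.27 in lymph node CDC against 4.27 and 4.22 in spleen CDC. Ciapin1, beside Ccl17 on its other side, read 7.71 in lymph node CDC against 8.21 and 8.42 in spleen CDC. Of these 5 neighbours, lymph node CDC was thus more than 2-fold above both spleen CDC arrays for Ccl22 and Ccl17, and, just past that mark, for Pllp, whose lymph node reading lay below the filter.

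The promoters of both chemokine genes and of Fscn1 are shown because these genes read far higher in lymph node CDC than in spleen CDC, as RefSeq gives them for GRCm38.p6, 5′ to 3′ on the plus strand, from 250 bases before to 50 after the transcription start. Of the 9 genes, 5 had an entry. Capitals mark matches on either strand to GGG, any 5 bases and CC, a general NF-kB motif, in Ccl22 and Fscn1, to TTCNNNGAA, a general STAT motif, in Ccl17, and to TATAAA, the TATA box, in Fscn1. No capitals of different motifs overlap.
Ccl22, chr8:94745434-94745733: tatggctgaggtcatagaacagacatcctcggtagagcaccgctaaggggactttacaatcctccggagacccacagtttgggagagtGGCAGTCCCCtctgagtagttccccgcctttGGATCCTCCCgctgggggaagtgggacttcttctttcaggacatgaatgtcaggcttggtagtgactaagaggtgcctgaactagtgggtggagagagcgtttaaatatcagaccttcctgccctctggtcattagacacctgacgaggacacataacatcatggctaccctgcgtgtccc
Ccl17, chr8:94810203-94810502: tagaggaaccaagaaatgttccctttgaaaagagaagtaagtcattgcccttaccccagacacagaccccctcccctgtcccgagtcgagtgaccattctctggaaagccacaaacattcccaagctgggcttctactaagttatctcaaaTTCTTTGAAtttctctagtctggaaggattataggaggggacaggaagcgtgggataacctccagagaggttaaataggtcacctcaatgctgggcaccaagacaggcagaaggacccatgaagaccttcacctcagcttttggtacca
Fscn1, chr5:142960105-142960404: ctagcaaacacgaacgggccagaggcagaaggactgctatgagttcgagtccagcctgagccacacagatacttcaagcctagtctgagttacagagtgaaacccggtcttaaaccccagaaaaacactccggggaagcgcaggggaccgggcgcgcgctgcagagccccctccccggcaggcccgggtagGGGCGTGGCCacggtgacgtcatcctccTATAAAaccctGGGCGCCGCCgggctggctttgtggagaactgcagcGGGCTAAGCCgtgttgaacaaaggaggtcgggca
The Ccl22 window held NF-kB matches on the minus strand at -162 and -131, counted in bases from the transcription start, and the Ccl17 window held a STAT match at -99, where the pattern fits on both strands. The Fscn1 window held NF-kB matches at -59, -20 and 16 and a TATA box at -31. Over 32851 RefSeq promoters of the same length, 50.8% held the NF-kB letters, 8.3% the STAT letters and 13.6% the TATA box. TGANTCA, an AP-1 motif, and GAAA, any 2 bases and GAAA, an interferon regulatory factor motif, were also searched on both strands, were in 7.81% and 3.44% of promoters, and were not in these 3 windows. A match is a description of the letters and not a measured site.

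Cd83 encodes a surface glycoprotein of mature dendritic cells that keeps class II molecules and CD86 at the surface. It read 10.53 in lymph node CDC and 10.80 and 11.31 in spleen CDC, 7.27 in lymph node IKDC and 8.79 and 7.32 in spleen IKDC, and 6.93 in lymph node NK and 6.86 and 6.21 in spleen NK. It was the only gene of the 8 that read lower in lymph node CDC than on both spleen CDC arrays, with a difference of -0.53 ± 0.64 (adjusted p = 0.793). All 3 CDC arrays lay above the other 6. With the IKDC and NK groups in order of their means, the gaps between neighbours ran from 0.34 to 0.78. Each was less than the SD of 1.04 between the spleen IKDC arrays, but spleen IKDC lay 1.52 above spleen NK.

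Socs2 encodes a suppressor of cytokine signalling that is switched on by STAT5. It read 9.84 in lymph node CDC and 4.56 and 6.45 in spleen CDC, 5.65 in lymph node IKDC and 5.51 and 5.72 in spleen IKDC, and 8.03 in lymph node NK and 5.36 and 6.29 in spleen NK. The lymph node arrays of CDC and NK stood apart from the rest, and the other 4 groups had means between 5.51 and 5.82, closer together than the SD of 1.33 between the spleen CDC arrays. The organ difference in CDC was 4.33 ± 0.80 (adjusted p = 0.142), or 20.2-fold, with 5.28 against array 1 and 3.39 against array 2, and it had rank 4 among the 10916 genes. It passed with the replicate block (adjusted p = 0.0255), and with the block but no level filter it did not (adjusted p = 0.0647).

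Il4i1 encodes a secreted oxidase of aromatic amino acids. It read 6.37 in lymph node CDC and 5.34 and 4.99 in spleen CDC, 5.71 in lymph node IKDC and 5.32 and 5.30 in spleen IKDC, and 5.12 in lymph node NK and 5.17 and 5.21 in spleen NK. Lymph node CDC was highest, and all other readings lay near the filter level. Lymph node CDC exceeded spleen CDC by 1.2 ± 0.44 (adjusted p = 0.345), at least 2.08-fold against the filter level. Its mean was 5.39 over 9 arrays and 5.27 over the 8 without lymph node CDC, so it too passed the filter only through that array.

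Over the comparison of lymph node CDC with spleen CDC, limma called 0 of the 7 tested genes, and 3 of 10916 genes in all (0.0275%). Those 3, Ccl3, Nr4a1 and Pglyrp2, were all lower in lymph node CDC, and 1386 genes had an unadjusted p under 0.05 (12.7%), 4 of the 7 among them. These 4 were Fscn1, Socs2, Ccl22 and Il4i1, of which Ccl22 and Il4i1 were tested only because of their lymph node CDC reading. With the replicate block, 2 of the 7 were called, both higher, against 60 genes called higher of 10916 (0.55%) and 173 called in either direction (1.58%). Of these 2, Socs2 passes the level filter without the lymph node CDC array and Ccl22 does not, and neither was called with the block and no filter. The median difference over the 8 measured genes was 2.19, with 2.77 against spleen array 1 and 1.83 against spleen array 2, beside -0.02 over all genes tested. Over the 5 genes that pass the filter without the lymph node CDC array it was 1.93. Against array 2, whose Xist level is like that of the lymph node array, Ccl17 differed by 4.36, Ccl22 by 3.83 and Socs2 by 3.39. On spleen CDC array 2, 7 of the 8 genes read higher than on spleen CDC array 1, where 47.1% of genes tested did so, and Il4i1 was the exception.

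**Figure D2:**
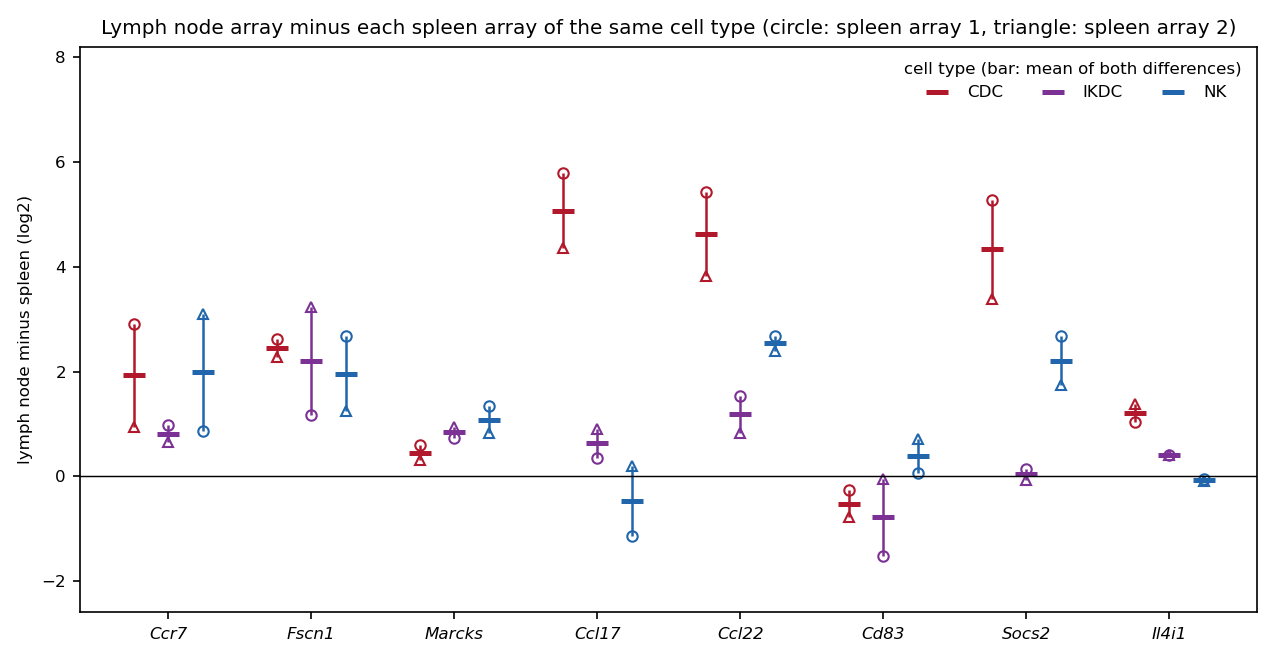
Log2 difference between the lymph node array and each spleen array of the same cell type (vertical axis) for the 8 genes, circles for spleen array 1, triangles for spleen array 2 and bars for the mean of both. In CDC, Ccl17, Ccl22 and Socs2 lie between 3.39 and 5.80 on both arrays, while Cd83 lies below 0, and in NK the Socs2 differences lie at 1.75 and 2.68.

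Other RNA moved between the same arrays. The 12 immediate early genes, which respond to handling of cells, were all above the filter on the CDC arrays and summed to 17410 units in lymph node CDC against 52878 and 62295 in spleen CDC. Nr4a1, an orphan nuclear receptor in that list, was lower in lymph node CDC by a log2 difference of -4.32 ± 0.28 (adjusted p = 0.0271). Of 11 macrophage and monocyte markers, 8 were at or above the filter on each CDC array, and their summed intensity was 27075 units in lymph node CDC against 15074 and 14705 in spleen CDC. Of the 9 tested, 7 read higher in lymph node CDC than in the mean of spleen CDC, with a median difference of 0.86, and none was called. C1qb differed by 2.15, C1qa by 2.04, Lyz2 by 1.70, Vcam1 by 1.28 and Csf1r by 0.86. Fcgr1 differed by -0.92 and Adgre1 by -0.64, and Mertk was near background on all 3 arrays. Plasmacytoid dendritic cell markers summed to 3727 units in lymph node CDC against 2289 and 2266 in spleen CDC. Their median level was 7.46 in lymph node CDC against 7.63 and 6.99 in spleen CDC. Ccr9 differed most, by 2.65, and Irf7 (-0.54) and Pacsin1 (-0.03) were the only ones lower than the mean of spleen CDC. Of 3 Langerhans cell markers, Cd207 read 11.09 in lymph node CDC against 9.53 and 10.28 in spleen CDC, Epcam read 7.29 against 7.05 and 7.45, and Cdh1 was below the filter at 4.96 against 5.14 and 4.38. The part of these transcripts in the differences of the 8 genes was not tested.

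The same organ comparison in NK and in IKDC asked whether these genes were higher in lymph node cells of other kinds. In NK, 6 of the 8 genes read above both spleen arrays in lymph node (31.4% of genes tested), and in IKDC also 6 of 8 (30.4%). The 6 in IKDC include Ccl17, at 4.69 against 4.33 and 3.79, all below the filter and without order. They also include Il4i1, at 5.71 against 5.32 and 5.30, near the filter. Markers of other cells moved in the same comparisons. T cell markers summed to 4350 units in lymph node NK against 2119 and 2113 in spleen NK, with all 8 tested markers higher and a median difference of 1.53, and Cd3e read 8.15 in lymph node NK against 5.04 and 5.85 in spleen NK. Plasmacytoid dendritic cell markers summed to 10779 units in lymph node IKDC against 2177 and 1536 in spleen IKDC, with all 8 tested markers higher, a median difference of 2.53 and 4 called with the block. The part of either in the results on the 8 genes was not tested. Between lymph node and spleen NK, Ccl22 was at least 1.24-fold higher against the filter level, spleen NK being near background (adjusted p = 0.767), Socs2 differed by 2.21 ± 0.80 (adjusted p = 0.808) and Fscn1 by 1.96 ± 0.91 (adjusted p = 0.91). Socs2 is a feedback gene of cytokine receptors that signal through STAT5, which NK also use. The part of such signals in the NK difference was not tested. Between lymph node and spleen IKDC, the Fscn1 difference was 2.20 ± 0.91 (adjusted p = 0.72) and the Socs2 difference 0.04 ± 0.80 (adjusted p = 0.999). Limma called 0 genes in either comparison (0%), with 628 at an unadjusted p under 0.05 in NK and 744 in IKDC, and with the replicate block 15 genes in NK (0.137%) and 126 in IKDC (1.15%), none of the 7 among them.

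Whether the organ difference was larger in CDC was tested directly. The organ difference of Ccl22 was larger in CDC than in IKDC by 3.45 ± 1.02 (adjusted p = 0.654) and larger than in NK by 2.09 ± 1.02 (adjusted p = 0.998), values that rest on spleen IKDC and spleen NK readings near background. For Socs2 the excess was 4.30 ± 1.13 over IKDC (adjusted p = 0.593) and 2.12 ± 1.13 over NK (adjusted p = 0.998). For Ccl17 no excess is given, since every reading but that of lymph node CDC was near background. For Ccr7 it was -0.05 ± 1.52 against NK (adjusted p = 0.999), an estimate near 0 with a wide error. Limma called 0 of 10916 genes in either test (0%), with and without the block, with 580 genes at an unadjusted p under 0.05 against NK and 615 against IKDC. An organ difference particular to CDC was therefore not shown for any of the 8.

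Within the spleen, where each group had 2 arrays, 4 of the 7 tested genes were higher in CDC than in NK, where 6.97% of all genes were called higher and 13.5% in either direction. Ccl22, among the 4, and the uncalled Il4i1 were tested only because of their lymph node CDC reading. With no filter Ccl22 was still called (limma adjusted p = 0.0298). Marcks was 28.3-fold higher, at 11.54 ± 0.20 in CDC and 6.72 ± 0.36 in NK (SD, n = 2 each, limma adjusted p = 0.000578). Cd83 was 22.9-fold higher, at 11.06 ± 0.37 in CDC and 6.54 ± 0.46 in NK (limma adjusted p = 0.00288). Fscn1 was 15.7-fold higher, at 10.35 ± 0.24 in CDC and 6.38 ± 1.01 in NK (limma adjusted p = 0.0165). Ccl22 was at least 1.88-fold higher, at 6.22 ± 1.13 in CDC and 3.08 ± 0.20 in NK, which is near background (limma adjusted p = 0.0166). Ccr7 was at 7.24 ± 1.40 in CDC and 4.23 ± 1.57 in NK and did not pass (limma adjusted p = 0.0771). Socs2 differed by -0.31 ± 0.65 and Il4i1 by -0.03 ± 0.36 (limma adjusted p = 0.838 and 0.975). The calls of Fscn1 and Ccl22 did not survive every fit that left out 1 array, fits in which the count over all genes was also lower. Leaving out spleen CDC array 1, spleen CDC array 2 or spleen NK array 1 gave Fscn1 adjusted p-values of 0.0866, 0.124 and 0.101, and leaving out spleen CDC array 2, spleen NK array 1 or spleen NK array 2 gave Ccl22 0.0903, 0.0968 and 0.0789. Over all such fits the Fscn1 difference ranged from 3.26 to 4.69 and the Ccl22 difference from 2.35 to 3.94. The Ccl22 difference of 3.15 was 4.59 with an offset of 1 unit and 1.6 with an offset of 32 units.

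Against spleen IKDC, spleen CDC were higher for 2 of the 7 genes, where 5.57% of all genes were called higher and 10.3% in either direction. Ccl22 and Il4i1, tested only because of their lymph node CDC reading, were not among the 2. Marcks was 9.80-fold higher, at 11.54 ± 0.20 in CDC and 8.25 ± 0.14 in IKDC (SD, n = 2 each, limma adjusted p = 0.00167), and Cd83 was 8.00-fold higher, at 11.06 ± 0.37 in CDC and 8.05 ± 1.04 in IKDC (limma adjusted p = 0.0162). Without spleen CDC array 1 or array 2 the adjusted p of Cd83 was 0.0779 and 0.135, and its log2 difference was 3.74 without spleen IKDC array 1 and 2.26 without spleen IKDC array 2. Fscn1 was at 10.35 ± 0.24 in CDC and 7.66 ± 1.46 in IKDC, with a difference of 2.69 ± 0.74 that passed with the replicate block (adjusted p = 0.0758, and 0.0488 with the block, where 8.57% of genes were called higher) and, at 3.72, without spleen IKDC array 1 (adjusted p = 0.0107), but not with the block and no filter (adjusted p = 0.0878). Ccl22 differed by 1.37 ± 0.59 (adjusted p = 0.229) and Ccr7 by 1.17 ± 0.88 (adjusted p = 0.502). Between spleen IKDC and spleen NK no gene of the 10916 was called (0%), and 600 had an unadjusted p under 0.05. Marcks differed by 1.53 ± 0.28 and Cd83 by 1.52 ± 0.53, each with an adjusted p of 0.859. Ccr7 was at least 1.69-fold higher in IKDC against the filter level (adjusted p = 0.859), and Ccl22 was near background in both.

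Within the lymph node, lone arrays were compared and assumed to vary like the spleen pairs. CDC were higher than NK for 3 of the 7 genes, where 3.22% of all genes were called higher and 6.16% in either direction. Ccl22 was 37.7-fold higher (adjusted p = 0.0196), Marcks 18.2-fold (adjusted p = 0.00664) and Cd83 12.1-fold (adjusted p = 0.0433). Marcks and Cd83 pass the filter without the lymph node CDC array. Ccl22 and the uncalled Il4i1 do not, and with no filter Ccl22 was still called (adjusted p = 0.0353). The Cd83 call was lost without spleen CDC array 1, spleen CDC array 2, spleen NK array 1 or spleen NK array 2, with adjusted p-values of 0.0987, 0.1, 0.083 and 0.0837, and with no filter (0.0695) or no trend (0.0514). Fscn1, the actin bundler, differed by 4.47 ± 1.05 and passed with the replicate block (adjusted p = 0.0637, and 0.0371 with the block, where 5.96% of genes were called higher), and also without spleen IKDC array 1 or 2 (0.011 and 0.0119) and with an offset of 32 units (0.0418), but not with the block and no filter (0.0732). Ccl17, tested with no filter, was at least 14.1-fold higher in CDC (adjusted p = 0.0483).

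Against lymph node IKDC, lymph node CDC were higher for 2 of the 7 genes, where 1.84% of all genes were called higher and 3.9% in either direction, and for 4 with the replicate block (4.15%). Ccl22 was 28.2-fold higher (adjusted p = 0.0337) and Marcks 7.49-fold higher (adjusted p = 0.021). Here too Ccl22 was tested only because of its lymph node CDC reading, as was the uncalled Il4i1. The Ccl22 call was lost without spleen NK array 1 or 2 (0.0742 and 0.0755), with no filter (0.0583) and with an offset of 1 unit (0.0547), and the Marcks call without spleen CDC array 1 or 2 (0.0596 and 0.0597). Socs2 differed by 4.19 ± 0.92 and Cd83 by 3.26 ± 0.74. Both passed with the block (adjusted p = 0.0678 and 0.0757, and 0.0108 and 0.026 with the block). Cd83 also passed without spleen IKDC array 1 or 2 (0.0146 and 0.0158), and Socs2 with an offset of 32 units (0.0301). With the block and no filter, Socs2 passed (0.0282) and Cd83 did not (0.0516). Ccl17, tested with no filter, was at least 14.1-fold higher in CDC than in IKDC and did not pass (adjusted p = 0.0948, and 0.0688 with the block). The comparisons within an organ share their CDC arrays, and those between organs share the spread of the same 3 spleen pairs.

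Across the cell types, the 8 genes fell into patterns that differ in what the lymph node array adds. In Fscn1, Cd83 and Marcks, 3 of the 8, all CDC arrays lay above all IKDC and NK arrays, as they did for 11.1% of genes tested. In 7 of the 8, lymph node CDC was the highest of the 9 arrays, as it was for 17.4% of genes tested, and so it was in 4 of the 5 that pass the filter on the other 8 arrays. The likeness of pairs over the arrays, which share cell type and organ, is given as a description. Cd83 and Marcks had a Pearson r of 0.933 over the 9 arrays and 0.927 over the 8 without lymph node CDC. Ccl17 and Ccl22 had an r of 0.792 over the 9 arrays and 0.0228 over the 8 without lymph node CDC, so their likeness rests on that array. Ccr7 and Ccl22 had an r of 0.892 over the 9 arrays and 0.872 over the 8.

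Several of the genes have more than 1 probe set, 22 in all. All 6 probe sets of Socs2 read higher in lymph node CDC than on both spleen CDC arrays, but by unequal amounts. Probe set 1449109_at differed by 3.85 and 1442586_at by 0.22, beside 4.33 for 1418507_s_at, which was used. For Fscn1, 3 of 4 probe sets read higher in lymph node CDC than on both spleen CDC arrays. The exception, 1448378_at, read 8.74 in lymph node CDC against 8.15 and 8.79 in spleen CDC, and it differed by 0.46 between spleen CDC and spleen NK (adjusted p = 0.532), where 1416514_a_at, which was used, differed by 3.97. With the mean of all its probe sets, the Fscn1 difference between spleen CDC and spleen NK was 1.33 (adjusted p = 0.106) and that between lymph node and spleen CDC was 1.63 (adjusted p = 0.331). In that setting the Fscn1 difference between lymph node and spleen was 0.14 in NK and 0.49 in IKDC, against 1.96 and 2.20 with 1416514_a_at. On 1448378_at alone the direction was reversed. It read 6.48 in lymph node NK against 7.92 and 8.10 in spleen NK, and 7.16 in lymph node IKDC against 7.78 and 7.18 in spleen IKDC. For Marcks, 4 of 7 probe sets read higher in lymph node CDC than on both spleen CDC arrays, and 1430311_at had a difference of -0.17. All 7 Marcks probe sets read higher on each spleen CDC array than on both spleen NK arrays, by mean differences of 1.47 to 5.65. Of these, 1437034_x_at, with 1.47, did not pass (adjusted p = 0.0585), nor did it between spleen CDC and IKDC, with 1.23 (adjusted p = 0.117). Between lymph node CDC and lymph node NK, the Marcks probe sets 1415972_at, 1430311_at and 1437034_x_at did not pass (adjusted p = 0.051, 0.057 and 0.145), nor did they between lymph node CDC and lymph node IKDC (adjusted p = 0.0832, 0.123 and 0.314).

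**Figure D3:**
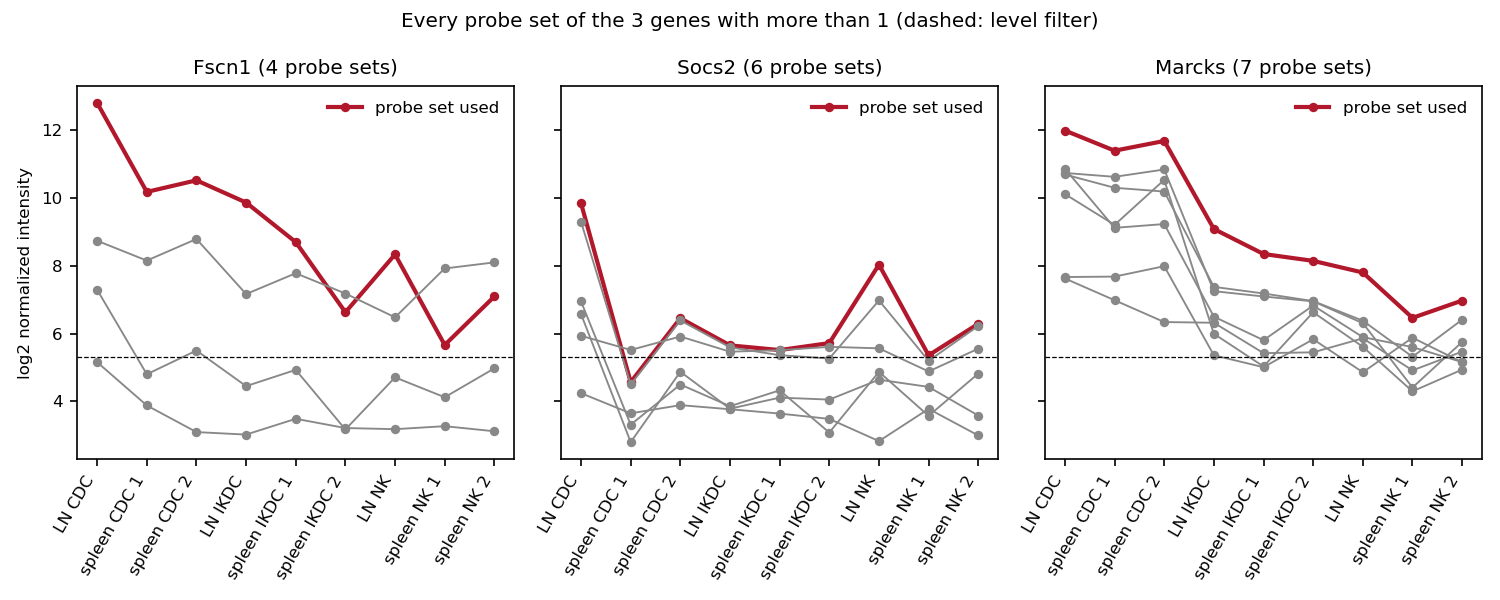
Log2 normalized intensity (vertical axis) of every single-symbol probe set of Fscn1, Socs2 and Marcks on the 9 arrays (horizontal axis), lymph node (LN) before spleen for each cell type. The probe set used is in red, the others are in grey, lines join readings of 1 probe set, and the dashed line is the level filter of 5.31. One Fscn1 probe set, 1448378_at, is nearly level across the CDC arrays, and the Socs2 probe sets read higher on LN CDC than on spleen CDC by unequal amounts.

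Other genes of the same programme were read from lists. Of 55 other genes of mature dendritic cells, 44 were tested, and 34 of those read higher in lymph node CDC than on both spleen CDC arrays, against 36.9% of all genes tested. More than 2-fold above both lay 17 of the 44, against 4.2% of genes tested, and the median difference was 0.98 beside -0.02. These counts are a description. The filter used means that include the lymph node CDC array, and how many of the 44 pass without it was not counted. The list was also chosen with earlier results of these data known. Limma called none of the 44 between lymph node and spleen CDC (0.0275% of all genes called). With the replicate block 5 were called higher (0.55%), namely Serpinb6b, Cxcl16, Il15ra, Adcy6 and Ccl5. Clu, which encodes the secreted chaperone clusterin, read 11.66 in lymph node CDC against 7.47 and 5.97 in spleen CDC. Tnfaip2, a gene induced by tumour necrosis factor, read 11.21 in lymph node CDC against 8.40 and 7.0 in spleen CDC. Adcy6, an adenylate cyclase, read 9.06 in lymph node CDC against 5.49 and 6.73 in spleen CDC (adjusted p = 0.166, and 0.0309 with the block). Clu and Tnfaip2 did not pass with the block (adjusted p = 0.0621 and 0.0872), and these 3 were named after their values were seen. Within the lymph node, 10 of the 44 were called higher and 1 lower in CDC than in NK, where 3.22% of all genes were called higher. The widest was Tnfaip2, 41.9-fold higher (adjusted p = 0.0315), followed by the chemokine gene Cxcl16, 21.4-fold (adjusted p = 0.0154), Mreg, 21.3-fold (adjusted p = 0.00963), and Lad1, 16.5-fold (adjusted p = 0.03). Against lymph node IKDC, 8 were higher and 1 lower, where 1.84% of all genes were higher. Within the spleen, 8 were higher and 7 lower in CDC than in NK, where 6.97% of all genes were higher and 13.5% differed in either direction, led by the nuclease gene Dnase1l3, at least 74.4-fold higher (adjusted p = 0.00505), and by Tbc1d4, 45.5-fold higher (adjusted p = 0.00137).

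**Figure D4:**
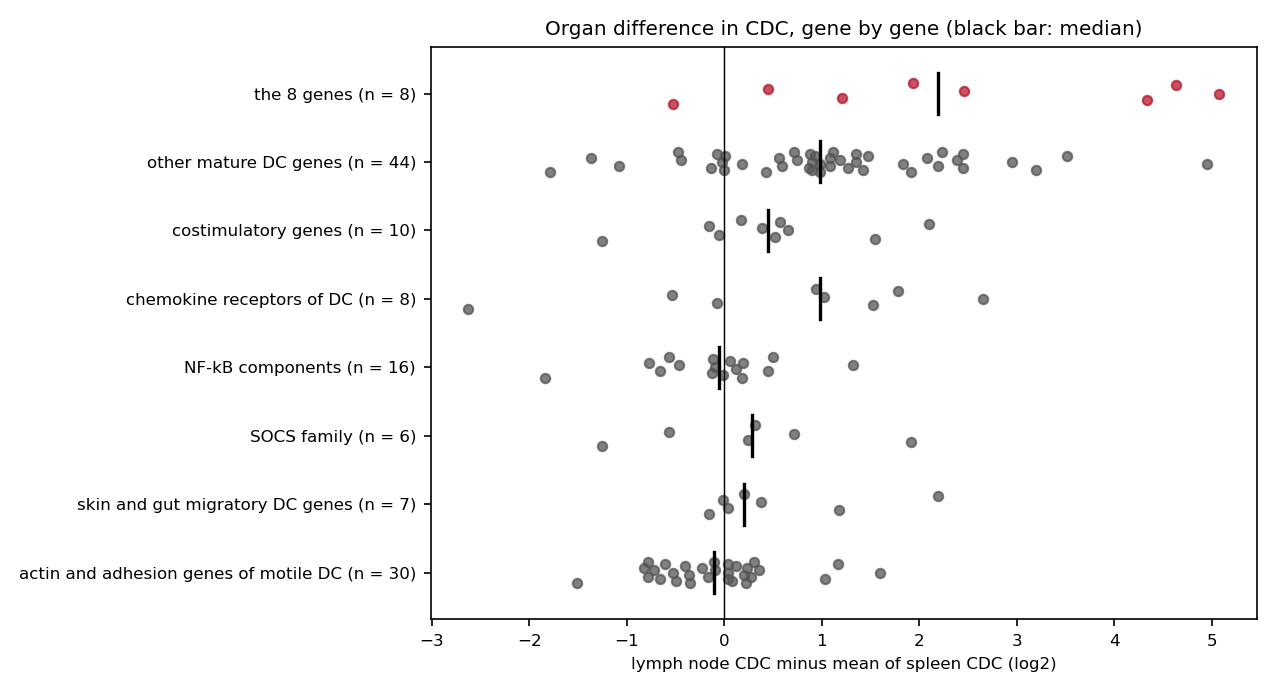
Log2 difference between lymph node CDC and the mean of spleen CDC (horizontal axis) for the 8 genes in red and the tested genes of 7 related lists in grey, 1 point per gene, with the median of each list as a black bar. The medians are 2.19 for the 8 genes, 0.98 for the other mature DC genes and -0.10 for the actin and adhesion genes. Over the 5 of the 8 that pass the filter without the lymph node CDC array the median is 1.93.

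Other lists were read in the same comparisons. For 10 costimulatory genes the median difference between lymph node and spleen CDC was 0.45, and limma called 0 of them. Within the spleen, 5 of the 10 were higher in CDC than in NK and 2 were lower, where 6.97% of all genes were higher and 13.5% differed in either direction. Cd86, a ligand of CD28, was 17.4-fold higher (adjusted p = 0.000732), Cd40, the receptor for T cell help, at least 14.7-fold (adjusted p = 0.00311) and Cd80, another ligand of CD28, at least 6.48-fold (adjusted p = 0.00284), while Tnfsf4, the OX40 ligand, was at least 1.61-fold lower (adjusted p = 0.00764). Cd40 read 10.73 in lymph node CDC against 9.02 and 9.35 in spleen CDC, and Cd86 read 11.07 against 10.36 and 10.63. For 16 components of the NF-kB pathway the median was -0.05 and limma called 0, and for 30 actin and adhesion genes it was -0.10 and limma called 0. Relb, the NF-kB subunit tied to dendritic cell maturation, read 10.16 in lymph node CDC against 9.64 and 10.44 in spleen CDC, and in the spleen it was 4.33-fold higher in CDC than in NK (adjusted p = 0.0238). For 7 tested genes of skin and gut migratory dendritic cells the median was 0.20, the value of Cdh1, which was below the filter on the CDC arrays. Mgl2 and Cldn1, listed but not tested, differed by 4.35 and 1.54. Limma called 0 of the 7, and 1 with the block, where 0.55% of all genes were called higher. It was Itgae, which encodes an integrin that binds epithelial cadherin. It read 11.04 in lymph node CDC against 8.65 and 9.06 in spleen CDC (adjusted p = 0.0976, and 0.0255 with the block).

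The relatives and partners of the 8 genes were read in the same way. Of 8 tested chemokine receptors of dendritic cells the median was 0.99, with 5 above both spleen CDC arrays, and limma called 0. With the block 1 was called lower, where 1.58% of all genes were called in either direction. It was Ccrl2, an atypical receptor that binds chemerin, with a difference of -2.63 (adjusted p = 0.0882, and 0.0255 with the block). Xcr1, the receptor of cross-presenting dendritic cells, read 9.59 in lymph node CDC against 7.91 and 9.22 in spleen CDC. Ccr4, the receptor for CCL17 and CCL22, stayed below the filter on every array, at 3.84 to 4.93. Of 6 tested members of the SOCS family other than Socs2, the median was 0.28 and limma called 0. Socs3, a feedback gene of STAT3, read 9.44 in lymph node CDC against 8.15 and 6.89 in spleen CDC, and in the spleen it was 14.8-fold lower in CDC than in NK (adjusted p = 0.00331). Cish, another feedback gene of STAT5, read 6.89 in lymph node CDC against 6.49 and 6.65 in spleen CDC, and 9.19 in lymph node NK against 7.27 and 7.90 in spleen NK. Socs1 was near background in CDC, at 3.13 in lymph node against 4.97 and 3.79 in spleen. Marcksl1, the paralog of Marcks, read 11.54 in lymph node CDC, 1.54 above spleen CDC array 1 and 0.32 above array 2. Fscn2, the retinal fascin, was below the filter on all 9 arrays, at 2.84 to 3.79. Of the calcium channel subunits related to Cacnb3, Cacnb1 read 6.67 in lymph node CDC against 5.95 and 6.38 in spleen CDC, and Cacnb2 and Cacnb4 read 5.95 and 4.15 in lymph node CDC. Flt3, the receptor that maintains dendritic cells, read 10.84 in lymph node CDC against 10.90 and 11.25 in spleen CDC.

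The genes most like the 8 were found by Pearson's r over the 9 arrays with the mean of their standardized levels, a profile that was 1.89 in lymph node CDC and 0.08 and 0.53 in spleen CDC, and between -0.87 and 0.07 elsewhere. The closest were Rhobtb1 (r = 0.975), Zmynd15 (0.974), Scn4b (0.971), Rad50 (0.97), Clasp2 (0.969), Sult1a1 (0.969), Pfkfb3 (0.956) and Snx8 (0.945). Zmynd15 read 8.91 in lymph node CDC against 5.27 and 5.90 in spleen CDC, and Sult1a1, a sulfotransferase, read 9.80 against 6.87 and 7.24. Clasp2, which binds the ends of microtubules, kept the order of the arrays at a smaller scale, at 9.71 against 8.97 and 9.05. Singly, Cd83 was most like Tnfrsf21 (r = 0.992), Marcks most like Mcemp1 (0.988), Ccl22 most like Scn4b (0.986), Fscn1 most like Atxn2 (0.979), Il4i1 most like Vipas39 (0.973), Ccl17 most like Fech (0.95), Ccr7 most like Rplp0 (0.948) and Socs2 most like Stap2 (0.944). Next in likeness were Cbr3 and H2-Ob for Cd83, Milr1 and Sirpa for Marcks, Zscan22 and Zmynd15 for Ccl22, Poglut2 and Papss2 for Fscn1, Pex10 and Mvb12a for Il4i1, Dlk1 and Zfp296 for Ccl17, Arhgap5 and E030024N20Rik for Ccr7, and Catsper2 and Cfap61 for Socs2. With 9 arrays in 3 cell types and 2 organs, values of this size are a description of the arrays, and nothing about shared control follows from them.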

How the data were processed

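RNA of cells sorted from spleen and lymph node was extracted with TRIzol and RNeasy, and biotin-labelled cRNA made from 6 µg of total RNA was hybridised, per the labels' protocols. The authors deposited 1 linear intensity per probe set and array, already scaled: the mean of the deposited intensities between the 2nd and 98th percentiles was 150.001 on all 9 arrays, and the sources used here name no software. Of 45101 probe sets, 34945 carry 1 gene symbol, 932 several and 9160 none in the platform annotation, and 34741 were matched by Entrez number. The probe set of highest mean stood for a gene. An offset equal to the 20th percentile, 6.49 units, was added, log2 was taken and the arrays were quantile normalized. Genes with a mean at or above the 40th percentile, 10916 of 18193, were tested with limma 3.58.1 in R 4.3.3 over 6 groups with 3 residual degrees of freedom, trended eBayes and Benjamini-Hochberg adjustment over all tested genes, at a threshold of 0.05. Python 3.11.15 drew the figures. A lymph node array was assumed to vary like the spleen pairs. The scripts were tested on simulated data.

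Spleen arrays of equal number deviated together, with r of 0.412 between CDC and NK deviations, 0.485 between those of NK and IKDC, and 0.529 for the pair CDC with IKDC, over 10916 genes. The numbers come from the labels and were therefore treated as a pairing, entered as a block in an alternative fit. Of the 8 measured genes 7 were tested, Ccl17 lying below the filter, and Ccl22 and Il4i1 passed it only through lymph node CDC. Cacnb3 had no single-symbol probe set in the annotation used and was not analysed here. The genes and lists were chosen with earlier results of these data known. Beside the listed genes, the text names a fixed set of relatives, up to 4 called genes of a list in a comparison, and the genes most like the 8. Alternatives changed the offset, normalization, filter, probe set rule, trend and block, and left out each spleen array. A fold written "at least" sets the filter level in place of a group mean below it.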

Additional observations from a re-analysis of the deposited data

How the results depend on the processing

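Over the 7 tested genes, 1125 results under an alternative were set beside the reported ones. Of these, 1056 kept direction and side of the threshold, 30 lost a call, 14 gained one and 25, none of them called, changed sign. The cause was not tested. Between lymph node and spleen CDC, 3 genes of the whole table were called. The count was 5 with a 75th percentile shift, 13 with an offset of 1 unit, 1 with an offset of 32, 0 with no filter, 10 with a filter at the 60th percentile, 8 with the mean of all probe sets and 0 with no trend. Leaving out 1 spleen array gave 0 to 19. With the replicate block, that is with spleen arrays paired by number, the counts were 173 for this comparison, 2314 against 1475 for spleen CDC and NK, 1884 against 1124 for spleen CDC and IKDC, 1324 against 672 for lymph node CDC and NK, 1033 against 426 for lymph node CDC and IKDC, 15 for NK between organs and 126 for IKDC between organs. Of the 7 genes, the block changed the calls of 2 between the organs in CDC, of Fscn1 in 2 comparisons and of Socs2 and Cd83 between lymph node CDC and IKDC, which made 4 called there. It changed no other call. With no filter and the block together, chosen after seeing the data, 26 genes were called between lymph node and spleen CDC, 676 between lymph node CDC and IKDC, 5 in NK and 42 in IKDC between organs. Leaving out 1 array gave 515 to 1915 for spleen CDC and NK, 360 to 1397 for spleen CDC and IKDC, 324 to 1077 for lymph node CDC and NK, 123 to 727 for lymph node CDC and IKDC and 0 to 14 for IKDC between organs. With no filter, lymph node CDC and IKDC gave 258. NK between organs gave 1 with an offset of 32, 1 with no filter and 3 with the 60th percentile filter, and IKDC between organs gave 46 with an offset of 32, 22 with the 60th percentile filter and 18 with the mean of all probe sets. Of the 7 tested genes, leaving out 1 array left 2 to 4 called between spleen CDC and NK, 1 to 3 between spleen CDC and IKDC and 1 to 3 between lymph node CDC and IKDC, where an offset of 1, no filter and the 60th percentile filter each left 1.

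The sign changes were of uncalled differences, given here with ranges over the fits that leave out 1 array. Marcks between lymph node and spleen CDC was -0.17 with 1430311_at. Between spleen CDC and NK, Socs2 ranged from -1.26 to 0.63 and was 0.50 with 1442586_at, and Il4i1 ranged from -0.206 to 0.144. Between spleen CDC and IKDC, Socs2 ranged from -1.05 to 0.84 and was 0.00605 with the values as deposited, 0.0377 with the 75th percentile shift, 0.0568 with the mean of all probe sets, 0.16 with 1442586_at and 0.13 with 1449109_at. In that comparison Il4i1 ranged from -0.320 to 0.0299 and was 0.0228 with the 75th percentile shift. Il4i1 between organs in NK was 0.0240 as deposited, and Socs2 between organs in IKDC ranged from -0.0669 to 0.139. The excess of the organ difference in CDC over NK ranged from -1.17 to 1.06 for Ccr7, which was 0.65 with an offset of 32, and from -0.22 to 1.21 for Fscn1. Over IKDC it ranged from -0.78 to 1.29 for Fscn1 and from -0.48 to 0.995 for Cd83, and it was 0.16 for Marcks with the mean of all probe sets. Between spleen IKDC and NK, Socs2 ranged from -0.67 to 0.26, and Il4i1 was -0.0532 with the 75th percentile shift. Readings near background, among them Il4i1 and most of Ccl17, limit what these arrays can order.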

Other observations

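Several related genes that lay below the level filter over the 9 arrays, and so were not tested, read above it in lymph node CDC. They were chosen after their values were seen. Mgl2, a lectin gene of dermal dendritic cells, read 9.02 in lymph node CDC against 4.33 and 5.01 in spleen CDC. Nudt17 read 8.77 in lymph node CDC against 3.23 and 5.54 in spleen CDC. Aldh1a2, which makes retinoic acid, read 8.47 in lymph node CDC against 5.10 and 5.76 in spleen CDC. Fas, the death receptor, read 7.41 in lymph node CDC against 4.73 and 4.79 in spleen CDC. Lao1, a paralog of Il4i1, read 6.70 in lymph node CDC against 4.01 and 3.74 in spleen CDC.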
